A study of Homo sapiens with 24 samples.

Results

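The genes that make, sense and break down retinoic acid were examined by RNA-Seq in 3 established triple-negative breast cancer (TNBC) cell lines. They were chosen by symbol as 10 genes: the aldehyde dehydrogenases ALDH1A1, ALDH1A2 and ALDH1A3, the reductase DHRS3, the hydroxylases CYP26A1 and CYP26B1, the binding protein CRABP2 and the receptors RARA, RARB and RARG. The deposited tables together name 66659 gene symbols, and all 10 genes had a row in both MDA-MB-231 tables. In the tables of Hs578T and of HCC70, 9 of the 10 had a row. ALDH1A1 had none in Hs578T, and CYP26A1 had none in HCC70. The 24 libraries form 8 conditions with 3 biological replicates each. In Hs578T and in HCC70, both unmodified, breast cancer stem-like cells (BCSCs) sorted as CD24-CD44+ and ALDH+ were compared with non-BCSCs that lacked these marks. In MDA-MB-231, cells given control sgRNA (sgCtrl) were compared with cells given sgRNA #1 against the kinesin gene KIF20A (KIF20A sg1), and cells with empty vector (EV) with cells labelled as overexpressing KIF20A (KIF20A OE). Virus-infected cells were selected with puromycin and not cloned as far as the methods say, and the lines were cultured in different media.

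Retinoic acid is made from vitamin A in steps. Retinol is oxidized reversibly to retinaldehyde by retinol dehydrogenases such as RDH10, DHRS3 turns retinaldehyde back into retinol, and the ALDH1A enzymes oxidize retinaldehyde irreversibly to retinoic acid. CRABP2 carries the acid to the nucleus, where RARA, RARB and RARG, paired with retinoid X receptors, bind response elements in DNA, and the CYP26 enzymes hydroxylate the acid for removal. RARB, CYP26A1, DHRS3 and CRABP2 are themselves known to be induced by retinoic acid. ALDH1A enzymes also turn over the fluorescent substrate used to sort ALDH+ cells, so a difference in their transcripts between sorted fractions is not independent of the gate.

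Library depth, recovered as whole reads, ran from 24681218 to 33715701 in the sorted lines. For MDA-MB-231 it ran from 41424338 to 51018667 with sgRNA and from 15971297 to 22182293 with vector. KIF20A, the targeted gene, was at 153, 173 and 156 CPM in sgCtrl and at 122, 145 and 91.1 in KIF20A sg1, all lower, with a log2 fold change of -0.45 (SE 0.16, limma adjusted p = 0.69). It was at 101, 143 and 124 CPM in EV and at 1348, 269 and 896 in KIF20A OE, a rise of 2.49 (SE 0.51, limma adjusted p = 0.0025). Marker genes placed Hs578T as mesenchymal (6 markers summing to 11620 to 14110 TPM) and HCC70 as epithelial (6 markers summing to 4575 to 5427 TPM). The libraries labelled KIF20A OE stood apart from EV and from their cell line label: CD44, high in MDA-MB-231, fell from 642 ± 135 CPM to 0.557 ± 0.591 (SD, n = 3), and 8 genes typical of a widely used embryonic kidney cell line summed to 1470 to 2017 CPM against 91.8 to 98.6 in EV. Of those 8, IRS4, NEFL, PAX2 and LIN28B were at 0 in all 3 EV libraries and none was at 0 in all 3 KIF20A OE libraries. The sgCtrl library of replicate 3 also stood apart, since 144 genes passed the test without it and 0 with it.

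Response elements were looked for in the RefSeq promoters of the 10 genes (GRCh38.p14, 250 bases before to 50 after each start), because they are the sequences through which retinoic acid receptors act. The search took the core AGGTCA, its variant AGTTCA, the core GGGTCA or its variant GGTTCA, in 2 copies of the same direction with a spacer of 5 bases, on both strands. All 10 genes had promoter entries, and RARB and CYP26A1 held a match. They are shown since both genes are standard readouts of the response, with the cores in capitals.
RARB: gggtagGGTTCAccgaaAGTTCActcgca
CYP26A1: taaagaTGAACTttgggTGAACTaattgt
The RARB stretch lies at chr3:25428204-25428232 on the plus strand, with the first core base 53 bases before a RARB start. The CYP26A1 stretch lies at chr10:93073797-93073825 and is printed on the plus strand, while its cores read on the minus strand, from 90 bases before the start. Such a repeat was found in 31 of 35116 promoters, or 0.0883%. It is a match of letters, and binding was not measured.

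In Hs578T, ALDH1A3 was the only tested gene of the group that passed the adjusted test between the sorted fractions. ALDH1A3 was the highest of the ALDH1A transcripts with a row in this line, at 296, 291 and 280 TPM (a level corrected for transcript length) in the non-BCSC libraries and at 701, 709 and 708 TPM in the BCSC libraries. All 3 BCSC libraries lay far above all 3 non-BCSC libraries, at 289 ± 8.35 against 706 ± 4.32 TPM (SD, n = 3), a ratio of 2.44. The log2 fold change was 1.29 (SE 0.04, limma adjusted p = 8.4e-06) and rested on 12075 to 13660 reads per non-BCSC library and 31510 to 34775 per BCSC library. The value stayed between 1.26 and 1.31 under all alternatives tried. ALDH1A3 lies at chr15:100877714-100916626 (GRCh38, plus strand), and 1715 of its 5335 exon bases are shared with the antisense gene ALDH1A3-AS1. The strand setting of the counting is not given in the sources used here, so reads of the 2 genes may not have been told apart. ALDH1A2, the enzyme best known from embryonic retinoic acid synthesis, had 0 to 2 reads in each Hs578T library.

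**Figure D1:**
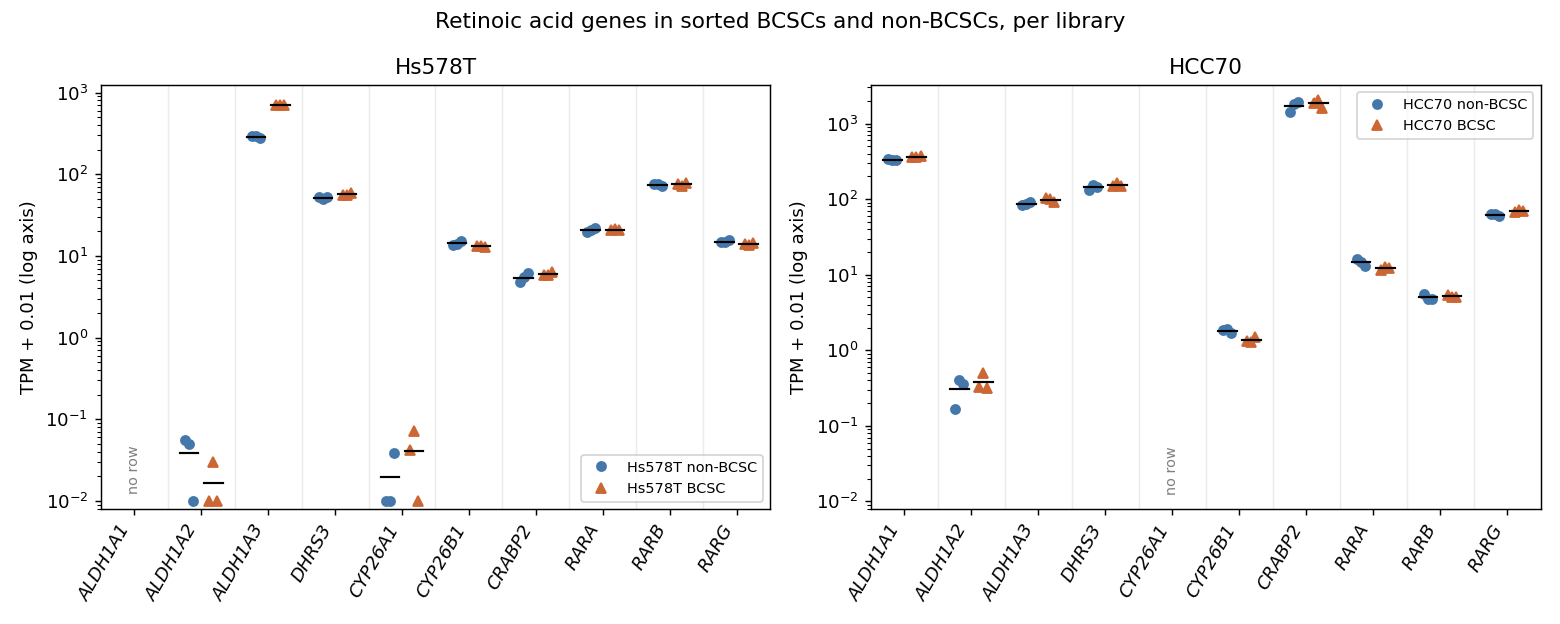
TPM of each gene in every sorted library of Hs578T (left) and HCC70 (right), plotted as TPM + 0.01 on a log axis. Circles are non-BCSC libraries, triangles BCSC libraries and bars group means of 3. ALDH1A3 in Hs578T is the gene with a wide gap between the fractions, 289 against 706 TPM, and ALDH1A1 in HCC70 lies at 331 against 362 TPM. "No row" marks a gene without a row in that table.

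The other genes of the group tested in Hs578T did not pass between the fractions. Of 9 genes with a row, 7 reached a mean of 1 TPM and were tested. 1 was higher and 0 were lower at an adjusted p under 0.05, against 2.9% higher and 4.26% lower (7.15% together) among the 13324 genes tested, and the median log2 fold change of the 7 was 0.02, against -0.01 for all genes. At an unadjusted p under 0.05 by limma there were 2, ALDH1A3 and DHRS3, against 2993 of all 13324 genes. Only ALDH1A3 was called by edgeR and by DESeq2 as well, against 1646 and 1418 of all genes. The fractions did not overlap for 2 genes higher and 2 lower in BCSCs, a separation that 12% and 17% of all genes showed (29% in either direction). The higher were ALDH1A3 and DHRS3, and the lower CYP26B1 and RARG.

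RARB, the receptor gene with the response element printed above, was expressed in Hs578T at 75.9, 75.8 and 71.4 TPM in non-BCSCs and at 76.1, 71.9 and 78.4 TPM in BCSCs. The fractions overlapped, with a log2 fold change of 0.02 (SE 0.05, limma adjusted p = 0.85). CYP26A1, the other gene with a match, had 0, 0 and 1 read in non-BCSCs and 1, 2 and 0 in BCSCs, at or under a floor of 3 reads in every library. RARB transcripts thus went with CYP26A1 reads at or under the floor in the same libraries of both fractions. DHRS3, which lowers retinaldehyde, was at 52.1, 50.1 and 53.1 TPM in non-BCSCs and at 55.1, 56.1 and 58.8 TPM in BCSCs. Each BCSC library was above each non-BCSC library, yet the log2 fold change was 0.13 (SE 0.05, limma adjusted p = 0.15). CRABP2 was low, at 4.72, 5.45 and 6.09 against 5.88, 5.80 and 6.30 TPM, and the fractions overlapped (log2 fold change 0.13, limma adjusted p = 0.45). CYP26B1, the hydroxylase that this line does express, was at 13.4, 14.0 and 15.4 TPM in non-BCSCs and 13.2, 13.2 and 13.0 TPM in BCSCs (log2 fold change -0.11, limma adjusted p = 0.33).

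The remaining receptors of Hs578T were close in both fractions. RARA was at 19.6, 20.8 and 21.8 TPM in non-BCSCs and 20.7, 21.4 and 20.7 TPM in BCSCs, with a log2 fold change of 0.01. RARG was at 14.6, 14.7 and 15.5 TPM in non-BCSCs and 14.1, 13.8 and 14.3 TPM in BCSCs, with a log2 fold change of -0.08 (SE 0.05, limma adjusted p = 0.39). Ordered by level in the non-BCSCs, ALDH1A3 came first, followed by RARB, DHRS3 and RARA, whose ranges did not overlap. RARG and CYP26B1 came next with overlapping ranges of 14.6 to 15.5 and 13.4 to 15.4 TPM, and CRABP2 was the lowest of the genes tested.

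In HCC70, ALDH1A1 took the place that ALDH1A3 had in Hs578T, and no gene of the group passed the test between the fractions. ALDH1A1 was at 337, 327 and 328 TPM in non-BCSCs and at 359, 357 and 370 TPM in BCSCs. Every BCSC library exceeded every non-BCSC library, at 331 ± 5.28 against 362 ± 7.13 TPM (SD, n = 3), with a log2 fold change of 0.13 (SE 0.05, limma adjusted p = 0.16). ALDH1A3 was at 84.6, 85.4 and 91.8 TPM in non-BCSCs and at 105, 99.9 and 90.6 TPM in BCSCs. The fractions overlapped, since the lowest BCSC library lay below the highest non-BCSC library, and the log2 fold change was 0.17 (SE 0.07, limma adjusted p = 0.18). Of the summed TPM of the 3 ALDH1A genes, ALDH1A1 made up 77.4% to 80.3% and ALDH1A3 19.7% to 22.6% over the 6 libraries. ALDH1A2 stayed at 0.16 to 0.50 TPM.

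CRABP2 was the most abundant gene of the group in HCC70, at 1413, 1787 and 1904 TPM in non-BCSCs and at 1884, 2026 and 1628 TPM in BCSCs. The spread within each fraction exceeded the difference between them (log2 fold change 0.12, SE 0.13, limma adjusted p = 0.60). DHRS3 was at 134, 152 and 147 TPM in non-BCSCs and at 151, 163 and 148 TPM in BCSCs (log2 fold change 0.09, limma adjusted p = 0.43). CYP26B1 was near the minimum for testing, at 1.82, 1.89 and 1.69 TPM in non-BCSCs and 1.33, 1.27 and 1.51 TPM in BCSCs, lower in each BCSC library (log2 fold change -0.24, SE 0.11, limma adjusted p = 0.22). None of these 3 genes was called in HCC70.

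The receptors of HCC70 were ordered differently from those of Hs578T, with RARG the highest. RARG was at 62.7, 64.4 and 60.2 TPM in non-BCSCs and at 68.0, 71.0 and 69.9 TPM in BCSCs, without overlap (log2 fold change 0.16, SE 0.05, limma adjusted p = 0.13). RARA was at 16.1, 14.7 and 13.1 TPM in non-BCSCs and at 11.5, 12.8 and 12.3 TPM in BCSCs, lower without overlap (log2 fold change -0.24, SE 0.09, limma adjusted p = 0.15). RARB, the leading receptor in Hs578T, was at 5.55, 4.75 and 4.77 TPM in non-BCSCs of HCC70 and at 5.40, 5.02 and 5.08 TPM in BCSCs (log2 fold change 0.04, limma adjusted p = 0.84). All told, 8 of the 9 genes with a row were tested and 0 were called, against 2.28% of 13218 genes higher and 0.552% lower (2.83% together). At an unadjusted p under 0.05 there were 4, namely ALDH1A1, ALDH1A3, RARA and RARG, against 3134 of all 13218 genes. By edgeR and DESeq2 0 were called, against 715 and 1167 of all genes. The fractions did not overlap for 2 higher and 2 lower genes, where 20.9% and 10.1% of all genes were so separated (30.9% together). The median log2 fold change was 0.11, against 0.02 for all genes.

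The BCSC effect was compared between the lines by the interaction of fraction and line over the 12 sorted libraries. Line, table and batch cannot be told apart there, but each fold change was formed within its own table. The effect on ALDH1A3 was greater in Hs578T by 1.12 on the log2 scale (SE 0.08, limma adjusted p = 2.1e-05). The difference was 1.06 to 1.17 over the alternatives, with adjusted p from 2.6e-05 to 0.0031. RARG differed in the other direction, by -0.24 (SE 0.06, limma adjusted p = 0.047), with adjusted p up to 0.13 over the alternatives. The call was lost without any one of 10 libraries, at -0.25 to -0.21 with adjusted p of 0.069 to 0.11, and held without replicate 3 of the Hs578T BCSCs or replicate 2 of the HCC70 non-BCSCs. Of 7 genes tested in both lines, these 2 were called, against 7.11% of 11668 genes. The other 5 differed by -0.01 to 0.25, the largest being RARA (SE 0.10, limma adjusted p = 0.13).

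**Figure D2:**
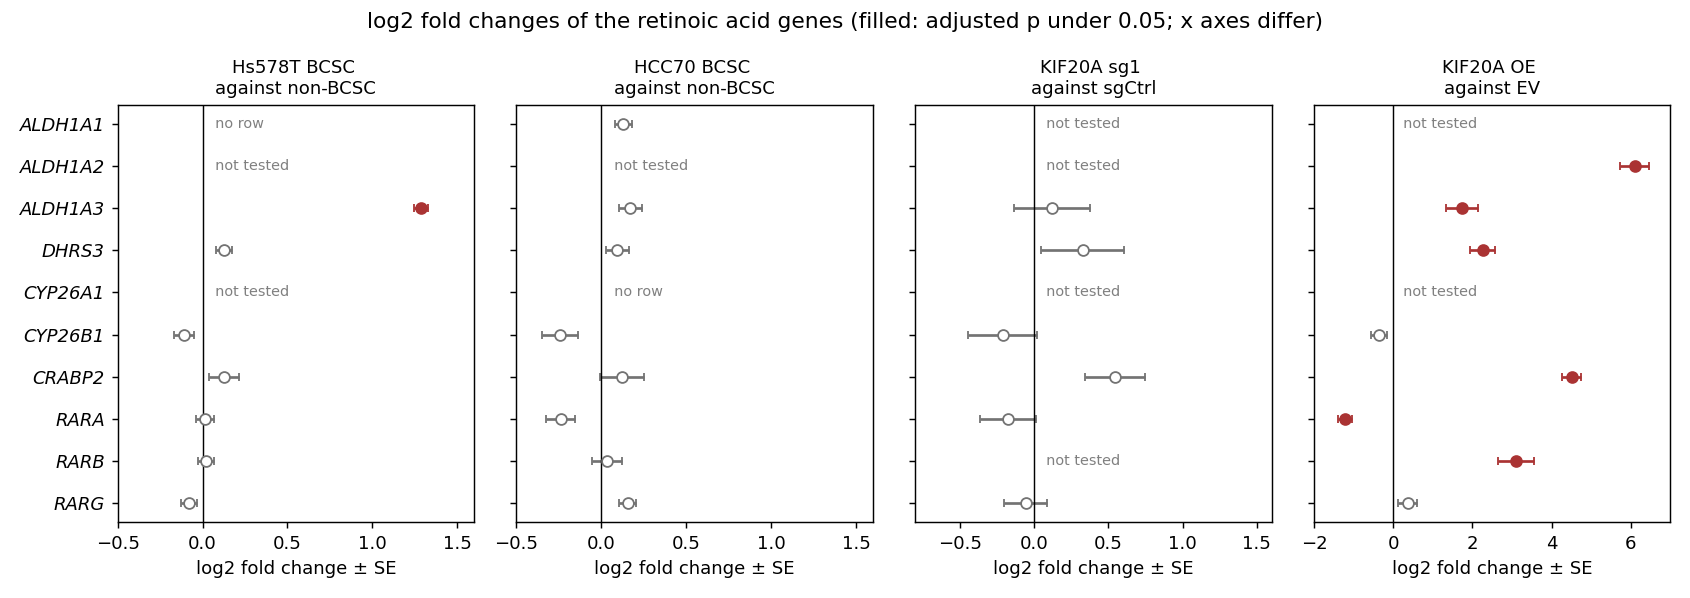
log2 fold changes with SE from limma for each gene in the 4 comparisons. Filled points have an adjusted p under 0.05, and the x axes differ in range. In Hs578T ALDH1A3 stands at 1.29 with the other genes near 0, HCC70 and KIF20A sg1 show no filled point, and KIF20A OE has 5 filled points above 0 and RARA below, at -1.22.

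Beyond these 10 genes, other genes of the pathway were read from lists drawn from textbook knowledge. A list of 14 genes was read for the supply of retinol and retinaldehyde, though its ALDH8A1 is an aldehyde dehydrogenase gene, not a supplier. DHRS9, a retinol dehydrogenase, was the gene of this list that rose in BCSCs of both lines. It went from 8.51, 7.97 and 6.31 TPM to 13.0, 11.7 and 13.1 TPM in Hs578T (log2 fold change 0.67, SE 0.10, limma adjusted p = 0.0095), with each BCSC library above each non-BCSC library. In HCC70 it went from 1.78, 1.90 and 2.11 TPM to 3.42, 3.48 and 3.22 TPM, again without overlap (log2 fold change 0.58, SE 0.10, limma adjusted p = 0.027). The HCC70 call was lost whichever library was left out, with adjusted p of 0.052 to 0.12 at log2 fold changes of 0.54 to 0.62. DHRS9 was the single call among 7 supply genes tested in Hs578T and 9 in HCC70, with list medians of 0.09 and 0.06. Among all genes tested, 7.15% were called in Hs578T and 2.83% in HCC70.

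The uptake and storage list gave 0 calls of 3 tested in Hs578T and 0 of 5 in HCC70 by limma. Of all genes 7.15% and 2.83% were called by limma. At an unadjusted p under 0.05 there were 0 and 1, against 2993 of 13324 and 3134 of 13218 genes. The tools edgeR and DESeq2 each called 0 and 1. The list of other breakdown genes had 2 tested in Hs578T, CYP2S1 and CYP4V2. Action of CYP4V2 on retinoic acid was not shown here. CYP2S1, a P450 that can oxidize retinoic acid, rose from 3.17, 3.47 and 3.50 TPM to 5.11, 4.28 and 5.21 TPM (log2 fold change 0.42, SE 0.09, limma adjusted p = 0.028). That call was lost when any library except replicate 2 of the BCSCs was left out, at 0.38 to 0.44 with adjusted p of 0.068 to 0.12. CYP4V2 lay lower in BCSCs, at 12.4, 12.1 and 10.9 TPM against 9.86, 9.17 and 10.2, without overlap. It did not pass by limma (log2 fold change -0.25, SE 0.07, limma adjusted p = 0.071). Both genes were called by edgeR and by DESeq2, against 1646 and 1418 of all genes in Hs578T. In HCC70 0 of 2 genes tested from this list were called, with 0 at an unadjusted p under 0.05 and 0 by edgeR or DESeq2.

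Partner receptors and cofactors gave 0 calls of 8 tested in each line by limma, against 7.15% of all genes in Hs578T and 2.83% in HCC70. At an unadjusted p under 0.05 there were 2 in Hs578T and 6 in HCC70, against 2993 of 13324 and 3134 of 13218 genes. Both edgeR and DESeq2 called 1 in each line, against 1646 and 1418 of all genes in Hs578T and 715 and 1167 in HCC70. In Hs578T the partner gene called was the coactivator gene NCOA3 (43.6, 43.2 and 41.8 TPM against 50.2, 46.9 and 51.7), without overlap of the fractions. NCOA1, another coactivator gene, was at 18.8, 17.9 and 17.4 TPM against 16.7, 15.5 and 16.4 in Hs578T and at 30.9, 30.1 and 31.4 TPM against 34.8, 33.3 and 35.7 in HCC70. It lay lower in the BCSCs of Hs578T and higher in those of HCC70, and the effects differed by -0.31 (SE 0.07, limma adjusted p = 0.024).

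Of 22 further target genes of retinoic acid, 14 were tested in Hs578T, of which 1 rose and 1 fell, and 15 in HCC70, of which 1 rose. Of all genes tested 2.9% were called higher and 4.26% lower in Hs578T, and 2.28% and 0.552% in HCC70. Their median log2 fold changes were -0.04 and 0.01. GPRC5A, a retinoic acid-induced receptor gene, rose in both lines, from 20.0, 22.7 and 20.1 TPM to 30.0, 25.8 and 31.2 TPM in Hs578T (log2 fold change 0.45, SE 0.08, limma adjusted p = 0.018). In HCC70 it rose from 145, 158 and 154 TPM to 195, 183 and 190 TPM (log2 fold change 0.31, SE 0.06, limma adjusted p = 0.035). The fractions did not overlap in either line. The Hs578T call was lost without replicate 1 or 3 of the non-BCSCs or replicate 1 of the BCSCs (0.42 in each case, adjusted p 0.070 to 0.075), and the HCC70 call was lost without any one of its libraries (0.28 to 0.34, adjusted p 0.052 to 0.18).

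PLAAT4, also called RARRES3 and known to be induced by retinoic acid, moved in opposite directions in the lines. It fell from 39.0, 36.6 and 42.1 TPM to 22.8, 19.2 and 26.1 TPM in Hs578T (log2 fold change -0.77, SE 0.10, limma adjusted p = 0.0058). In HCC70 it was at 191, 251 and 246 TPM in non-BCSCs and at 289, 291 and 273 TPM in BCSCs (log2 fold change 0.32, limma adjusted p = 0.12). The fractions did not overlap in either line, and the effects differed by -1.09 (SE 0.16, limma adjusted p = 0.0030). TNFAIP2, another induced gene, was at 7.15, 7.21 and 7.57 TPM against 6.11, 6.41 and 5.69 in Hs578T and at 341, 372 and 367 TPM against 408, 402 and 383 in HCC70. Its effects differed by -0.38 (SE 0.07, limma adjusted p = 0.014), while neither line passed alone. RARRES1, chosen here after its values were seen, was at 3333 ± 144 TPM in HCC70 non-BCSCs and 3231 ± 68.4 in BCSCs, and at 0 to 0.086 TPM in Hs578T.

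**Figure D3:**
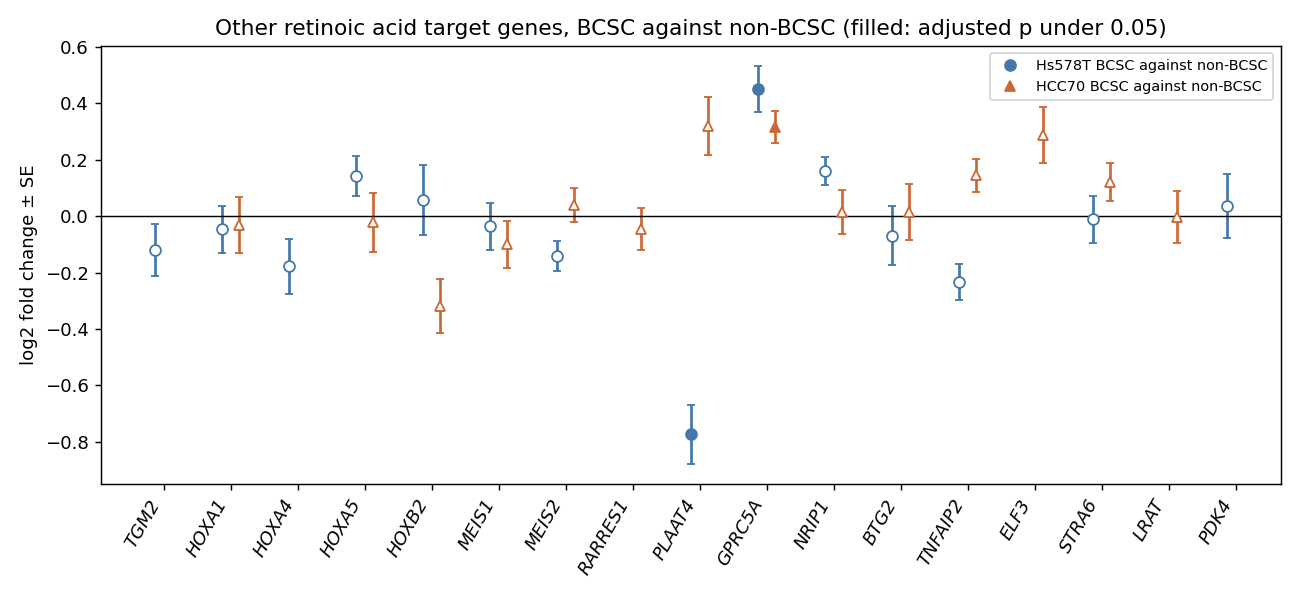
log2 fold changes with SE of further retinoic acid target genes tested in Hs578T (circles) or HCC70 (triangles). Filled points have an adjusted p under 0.05. GPRC5A is filled above 0 in both lines at 0.45 and 0.31, and PLAAT4 is filled at -0.77 in Hs578T but lies at 0.32 in HCC70, while the remaining points are open.

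With KIF20A sg1, the retinoic acid genes of MDA-MB-231 did not pass the test, and ALDH1A3 remained the main ALDH1A transcript. Values here are read counts scaled to library size, named CPM by the authors, with no length term. ALDH1A3 was at 13.3, 19.1 and 7.96 CPM in sgCtrl and at 16.1, 11.9 and 14.2 CPM in KIF20A sg1. The groups overlapped (log2 fold change 0.12, SE 0.26, limma adjusted p = 0.92), and the sign turned to -0.18 without replicate 3 of sgCtrl. Per kilobase of exon, ALDH1A3 made up 97.3% to 99.1% of the 3 ALDH1A genes over the 6 libraries. ALDH1A1 had 2 reads in a single library and 0 in the others, and ALDH1A2 had 8 to 26 reads.

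CRABP2 was the gene whose groups did not overlap among the 6 genes tested, at 5.57, 5.59 and 3.37 CPM in sgCtrl and at 8.53, 6.81 and 6.94 CPM in KIF20A sg1 (log2 fold change 0.55, SE 0.20, limma adjusted p = 0.69). Such separation upwards was seen for 5.73% of 12852 genes and downwards for 7.3% (13% together), and 0% of them passed the adjusted test. CRABP2 was also the 1 gene of the 6 at an unadjusted p under 0.05, against 899 of all 12852 genes. Of the 6, edgeR and DESeq2 called 0, against 0 and 11 of all genes. DHRS3 was at 9.74, 24.5 and 15.3 CPM in sgCtrl and at 18.7, 25.6 and 15.9 CPM in KIF20A sg1 (log2 fold change 0.33, limma adjusted p = 0.80). CYP26B1 was at 10.8, 12.1 and 5.84 against 7.15, 7.94 and 8.40 CPM (log2 fold change -0.21, limma adjusted p = 0.84), and both genes overlapped between the groups.

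RARA and RARG overlapped as well, while RARB did not. RARA was at 27.7, 34.6 and 21.9 CPM in sgCtrl and at 24.9, 20.1 and 28.8 CPM in KIF20A sg1 (log2 fold change -0.18, limma adjusted p = 0.83). RARG was at 23.8, 28.7 and 21.9 against 23.5, 24.2 and 23.3 CPM (log2 fold change -0.06, limma adjusted p = 0.94). RARB lay under the minimum for testing, with 0, 13 and 10 reads in sgCtrl and 13, 44 and 18 in KIF20A sg1. Scaled to depth its mean was 0.16 against 0.53 CPM, and each KIF20A sg1 library lay above each sgCtrl library. CYP26A1 had 0, 0 and 0 reads against 2, 3 and 2, also without overlap but at or under the floor of 3 reads in every library. With no minimum, the log2 fold changes by limma were 0.39 for RARB (SE 0.15, unadjusted p = 0.032) and 0.07 for CYP26A1 (SE 0.03, unadjusted p = 0.023), and both had an adjusted p of 0.86. The median log2 fold change of the 6 genes was 0.03 and that of all genes 0.00. In the lists, 0 of 5 supply, 0 of 2 uptake, 0 of 2 breakdown, 0 of 8 partner and 0 of 10 target genes passed by limma. At an unadjusted p under 0.05 there were NCOA3 among the partners and NRIP1 and PDK4 among the targets, against 899 of all 12852 genes. From the lists edgeR called 0, and DESeq2 called PDK4, against 11 of all genes. PDK4, a mitochondrial kinase gene, was at 1.10, 3.15 and 2.49 CPM in sgCtrl and 6.10, 8.47 and 7.42 CPM in KIF20A sg1, without overlap.

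**Figure D4:**
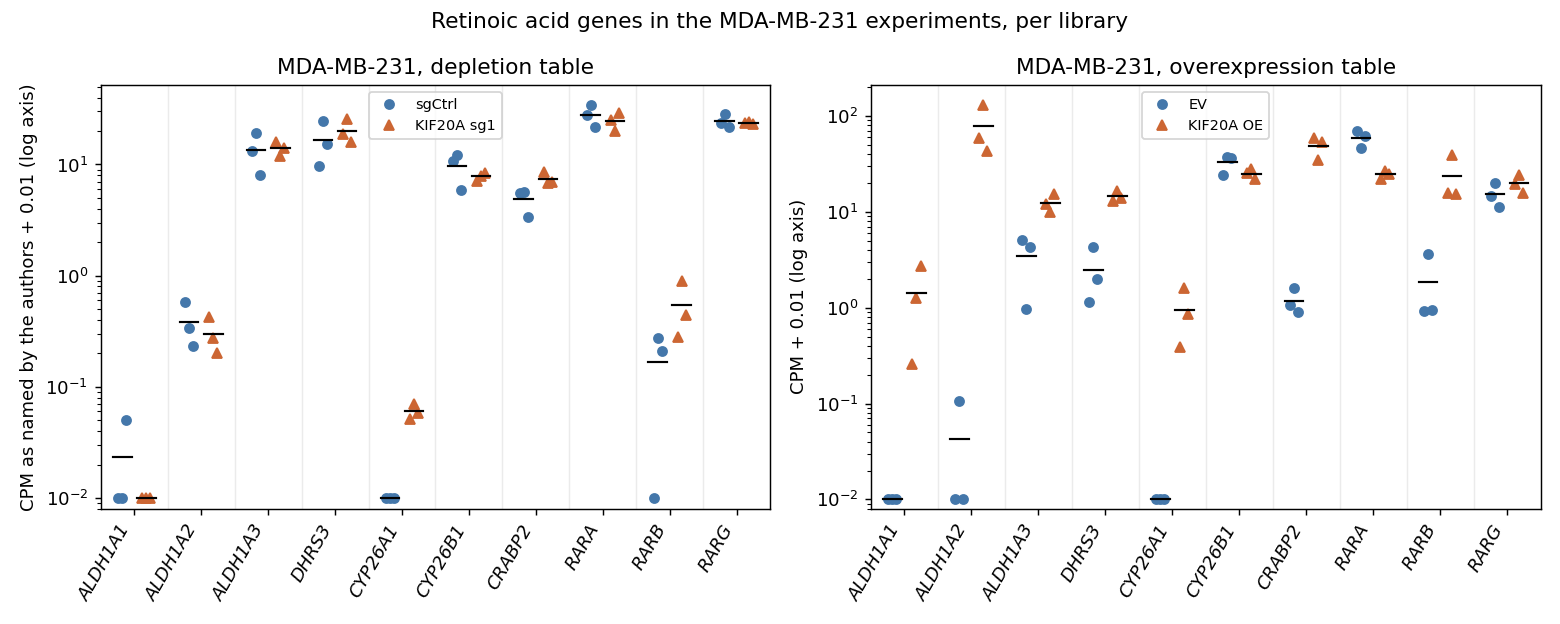
CPM of each gene in every MDA-MB-231 library of the depletion experiment (left) and the overexpression experiment (right), plotted as CPM + 0.01 on a log axis, with bars for group means of 3. On the left the groups lie close, with CRABP2 at 4.84 against 7.43 CPM. On the right ALDH1A2 lies at 0.032 against 77.8 CPM, CRABP2 at 1.18 against 49.0 and RARA at 58.9 against 24.5. The experiments were normalized separately.

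In the libraries labelled KIF20A OE, most of the retinoic acid genes were higher than in EV, led by ALDH1A2. As these libraries also lost CD44 and gained genes of embryonic kidney cells, as given above, a change within a cell cannot be told apart from a change of the cells, here or in any bulk sample. ALDH1A2 had 0, 2 and 0 reads in EV and 945, 2903 and 807 in KIF20A OE, at 59.2, 131 and 43.2 CPM. It rose by limma (adjusted p = 2.8e-06), and the ratio of its summed reads per depth was 2404, with a 95% exact (Clopper-Pearson) interval of 665 to 19860 that covers counting error only. ALDH1A3 rose from 5.05, 0.967 and 4.23 CPM to 12.0, 9.96 and 15.3 CPM (log2 fold change 1.74, SE 0.41, limma adjusted p = 0.0054). ALDH1A1 had 0 reads in each EV library and 4, 28 and 51 in KIF20A OE, at least 9.14-fold higher against a floor of 3 reads per EV library, but lay outside the main test as its mean was under 1 CPM (adjusted p = 0.018 by limma with no minimum). Per kilobase, the main ALDH1A transcript thus differed, with ALDH1A3 at 93.8% to 100% of the sum in EV and ALDH1A2 at 58.2% to 87.5% in KIF20A OE.

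The genes of the group named above as induced by retinoic acid, RARB, CYP26A1, CRABP2 and DHRS3, were higher as well. CYP26B1, given below, was not higher. RARB rose from 0.90, 3.62 and 0.94 CPM to 15.6, 39.5 and 15.4 CPM (log2 fold change 3.11, SE 0.46, limma adjusted p = 0.00041). CYP26A1 had 0 reads in each EV library and 6, 35 and 16 in KIF20A OE, at least 6.05-fold higher on the same floor (adjusted p = 0.0055 by limma with no minimum). Both genes with a printed match were higher in all 3 KIF20A OE libraries than in any EV library, where 46.2% of all genes tested rose. Whether the match had a part in this was not tested. CRABP2 rose from 1.05, 1.59 and 0.88 CPM to 59.4, 34.8 and 52.9 CPM (log2 fold change 4.50, SE 0.25, limma adjusted p = 1.6e-06). DHRS3 rose from 1.14, 4.25 and 2.00 CPM to 13.0, 16.6 and 13.9 CPM (log2 fold change 2.26, SE 0.32, limma adjusted p = 0.00034). No group overlapped with the other for these 4 genes. Of the 15265 genes tested, 48.9% were likewise separated upwards and 74.1% in either direction. CYP26A1 was not among those tested.

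RARA was the gene that fell, from 69.0, 46.6 and 61.1 CPM to 21.7, 26.7 and 25.0 CPM (log2 fold change -1.22, SE 0.17, limma adjusted p = 0.00035). RARG overlapped at 14.8, 19.8 and 11.3 against 19.3, 24.4 and 15.6 CPM (log2 fold change 0.37, limma adjusted p = 0.21). CYP26B1 was at 24.2, 37.6 and 36.1 CPM in EV and at 25.3, 27.8 and 21.9 CPM in KIF20A OE (log2 fold change -0.35, limma adjusted p = 0.14). Without replicate 1 of EV, CYP26B1 passed at -0.55 (limma adjusted p = 0.022). Of the 8 genes tested, 5 rose and 1 fell, against 46.2% and 23.4% (69.7% together) of 15265 genes, and the same numbers were separated, against 48.9% and 25.2% (74.1% together). Their median log2 fold change was 2.00, against 0.37 over all genes.

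That shift of all genes depended on the scaling. Rescaled by the median of ratios, its median was 0.03, and 5135 genes were higher and 5013 lower instead of 7055 and 3579. On that scale the 5 genes that rose were at 1.44 (ALDH1A3), 1.96 (DHRS3), 2.83 (RARB), 4.22 (CRABP2) and 5.91 (ALDH1A2), RARA was at -1.58 and RARG at 0.02. CYP26B1 then passed as well, at -0.71 (limma adjusted p = 0.0093).

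Other pathway genes are given beside the 46.2% of all genes that rose and the 23.4% that fell in the libraries labelled KIF20A OE. Among 6 genes tested from the supply list, which here included ALDH8A1, 5 rose and 1 fell. RDH10, the main embryonic retinol dehydrogenase, led, from 9.33, 7.64 and 15.3 CPM to 57.6, 58.3 and 58.2 CPM (log2 fold change 2.38, SE 0.23, limma adjusted p = 3.9e-05). ALDH8A1, RDH13 and DHRS4 rose by 1.16, 0.69 and 0.58. ALDH8A1 was low, at 0.38, 0.39 and 0.53 CPM in EV and 1.88, 3.25 and 1.66 CPM in KIF20A OE, and its value ran from 0.40 under quantile normalization, where the call was lost (limma adjusted p = 0.16), to 2.10 with a pseudocount of 0.1. On the scale of the median of ratios 3 of the 6 were called, with RDH13 and DHRS4 at adjusted p of 0.099 and 0.27, and DHRS4 also missed the threshold without replicate 1 of KIF20A OE, at 0.53 with 0.053. Of 5 uptake genes 1 rose and 1 fell. LRAT, which stores retinol as esters, was at 0.29, 1.74 and 3.82 CPM in EV and 0.13, 0 and 0.16 CPM in KIF20A OE. It fell by 1.23 on the log2(CPM + 1) scale (limma adjusted p = 0.029), and over the alternatives its value ran to -4.71, by DESeq2. The LRAT call was lost without any one of the KIF20A OE libraries, at -1.28 to -1.17 with adjusted p of 0.066 to 0.091. Both genes tested from the breakdown list were called, with CYP2S1 up by 2.15 and CYP4V2 at -0.87.

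Of 9 partner genes 3 rose and 5 fell, against the same 46.2% and 23.4% of all genes, including the receptor gene RXRG at 0 in EV and 3.32, 4.96 and 2.20 CPM in KIF20A OE. The nuclear receptor gene PPARD fell by 1.59 on the log2 scale (SE 0.21, limma adjusted p = 0.00025), and the coactivator gene NCOA2 rose by 0.94. Of 15 target genes 8 rose and 6 fell, where all genes gave 46.2% and 23.4%. The homeobox genes HOXA5 and HOXB2 rose from 0.33, 0.24 and 0.059 CPM to 78.3, 116 and 108 CPM and from 0.095, 0.097 and 0.18 CPM to 44.6, 41.3 and 40.3 CPM (log2 fold changes 6.38 and 5.26). The antiproliferative gene BTG2 rose (limma adjusted p = 3.1e-06) from 0, 0.048 and 0 CPM to 100.3, 33.8 and 84.2 CPM. The transglutaminase gene TGM2, a standard target, fell from 389, 628 and 329 CPM to 2.75, 4.33 and 2.62 CPM (log2 fold change -6.70, SE 0.26, limma adjusted p = 2.7e-07). The induced genes GPRC5A, PLAAT4 and TNFAIP2, described above for the sorted lines, fell, with log2 fold changes of -2.38, -2.09 and -4.67 (limma adjusted p = 0.0055, 1.8e-05 and 1.3e-06), in contrast to RARB and CRABP2. PLAAT4 was at 3.90, 3.43 and 3.23 CPM in EV and at 0, 0.18 and 0 CPM in KIF20A OE, and its value ran to -6.06 over the alternatives. The target list thus held large changes in both directions, with a median log2 fold change of 1.42. How far the difference in the embryonic kidney markers accounts for any of these values was not tested.

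Set side by side without a test, since each table was normalized separately, the genes differed in which cells held them. ALDH1A3 led the ALDH1A genes that had a row in Hs578T, sgCtrl, KIF20A sg1 and EV, ALDH1A1 led in HCC70, and ALDH1A2 led in KIF20A OE. RARB exceeded RARA and RARG in Hs578T alone, at 74.4 against 20.8 and 14.9 TPM in non-BCSCs, and was the lowest of the 3 in HCC70 at 5.03 TPM. In sgCtrl and EV, per kilobase of exon, RARB was at 0.016 and 0.19 CPM per kb and RARA at 5.92 and 12.4. Of the genes with a row in both TPM tables, CRABP2 spanned the widest range of group means, from 5.42 ± 0.689 in Hs578T non-BCSCs to 1846 in HCC70 BCSCs. CYP26A1 had at most 3 reads per library in Hs578T, sgCtrl, KIF20A sg1 and EV, at or under the floor in each of those conditions.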

How the data were processed

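RNA-Seq of 24 libraries was read from 4 tables. Per the labels, the submitters' processing notes name HISAT2 2.0.5, featureCounts 1.5.0-p3 and GRCh38. The authors deposited TPM for Hs578T and HCC70 and CPM for the overexpression experiment. The depletion table, which the authors named CPM, holds a signal whose deposited columns sum to 977394 to 1028621, so it is reads divided by 1 factor per library. There were 0 unused sample columns. Whole reads were recovered for 100% of rows and may be too low by a common divisor for a few genes in the TPM tables.

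Rows with a mean of at least 1 were tested on log2(value + 1) by limma 3.58.1 with a trend in R 4.3.3. The pseudocount of 1 understates fold changes of low genes. Tests were two-sided, and Benjamini-Hochberg adjustment covered all rows of each comparison. The fit was tested on simulated data with 200 changed genes. Exact permutation of 3 against 3 libraries cannot go below p = 0.1, which was reached by each gene without overlap. Alternatives were a pseudocount of 0.1, other minimums, other scalings, count tests on the recovered reads (DESeq2 1.42.0, edgeR 4.0.16), a replicate block, and each library left out. Locations and exon lengths came from GENCODE 44 on GRCh38, and promoters from RefSeq. Read floors cover counting error only. The genes and lists were chosen with earlier results of these data known. Named genes were all 10, KIF20A, up to 4 called genes with the largest change per list and comparison, and the 5 genes most correlated with ALDH1A3. Others were named after their values were seen. Python 3.11.15, pandas 2.3.3, numpy 2.4.6 and matplotlib 3.10.9 were used. Results for a few genes of the lists are not reported here.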

Additional observations from a re-analysis of the deposited data

Results flagged for a closer look

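For 5 genes the BCSC effect differed between Hs578T and HCC70 by limma's interaction term. They were 2 of 7 genes tested of the group, 1 of 8 partners and 2 of 11 further targets. The supply, uptake and breakdown lists gave 0 of 7, 0 of 2 and 0 of 1. Among all 11668 genes tested, 7.11% were called. For ALDH1A3 the Hs578T effect minus the HCC70 effect was 1.12 on the log2 scale (SE 0.08, limma adjusted p = 2.1e-05). For PLAAT4 it was -1.09 (SE 0.16, limma adjusted p = 0.0030), with lower values in all 3 BCSC libraries of Hs578T and higher values in all 3 of HCC70. For TNFAIP2 it was -0.38 (SE 0.07, limma adjusted p = 0.014), with the same opposite movement, and for NCOA1 it was -0.31 (SE 0.07, limma adjusted p = 0.024), again so. For RARG it was -0.24 (SE 0.06, limma adjusted p = 0.047), the smallest of the 5. TNFAIP2 missed the threshold under the median of ratios (-0.33, adjusted p = 0.051). NCOA1 missed it without replicate 1 or 2 of the Hs578T non-BCSCs, replicate 2 of the Hs578T BCSCs, or replicate 1 or 3 of the HCC70 BCSCs (-0.31 to -0.28, adjusted p 0.051 to 0.066). The lines differ in culture medium and batch as well as origin, and the part of these in the differences cannot be told apart.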

How the results depend on the processing

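Of the values for single genes, 468 alternatives that kept all libraries left direction and side of the threshold as they were, 21 lost a call, 4 gained one and 3 changed sign. The sign changes were RARG in KIF20A OE under quantile normalization (-0.0092 on the log2 scale), and in the difference between the lines DHRS9 with a pseudocount of 0.1 (-0.049) and RARB under the median of ratios (0.036). With 1 library left out, 418 held, 39 lost a call, 1 gained one and 19 changed sign, each for a gene that had not passed. These ranged from -0.025 to 0.050 for RARA and -0.0078 to 0.054 for RARB in Hs578T, -0.0052 to 0.21 for CRABP2 in HCC70, and -0.18 to 0.40 for ALDH1A3 and -0.14 to 0.050 for RARG in KIF20A sg1. In the difference between the lines they ranged from -0.082 to 0.13 for CRABP2, -0.0068 to 0.087 for DHRS3, -0.025 to 0.16 for DHRS9 and -0.076 to 0.019 for RARB. The causes were not tested.

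Counts of all genes past the threshold moved more. Hs578T had 953 (386 higher, 567 lower), 1193 under the median of ratios (620 and 573), 1646 with edgeR (813 and 833) and 343 to 865 with a library left out, lowest without replicate 2 of the non-BCSCs. HCC70 had 374 (301 and 73), 178 with no minimum, 233 and 235 under the median of ratios and quantile normalization, 715 with edgeR (441 and 274), 1167 with DESeq2 (635 and 532) and 32 to 270 with a library left out, lowest without replicate 1 of the BCSCs. KIF20A sg1 had 0 (899 at an unadjusted p under 0.05), 11 with DESeq2 and 0 to 144 with a library left out. KIF20A OE had 10634 and 9576 to 10364. The difference between the lines had 830 (174 and 656), 736 under the median of ratios (333 and 403) and 291 to 1225 with a library left out. Deviations of same-numbered libraries from their group means had correlations of -0.16 to 0.19. With so few libraries per group, these cannot settle whether the numbers pair the samples. With a replicate block the counts were 669 in Hs578T, 128 in HCC70, 0 in KIF20A sg1, 10545 in KIF20A OE and 302 for the difference between the lines, and CYP2S1 in Hs578T, DHRS9 and GPRC5A in HCC70, and RARG, NCOA1 and TNFAIP2 between the lines, missed the threshold.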

Other observations

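The genes most like ALDH1A3 over the 12 sorted libraries were found by Pearson's r of log2(TPM + 1) after subtracting each line's mean, among 8017 genes whose mean reached 10 TPM in both lines. The libraries of a line share its table and sort, so r is a description and the Hs578T fractions carry most of it. The 5 highest were IGFBP3 (0.984), a binding protein of insulin-like growth factors, TMEM156 (0.984), TNFRSF11A (0.981), which encodes the receptor RANK, ODC1 (0.946), the ornithine decarboxylase of polyamine synthesis, and NCEH1 (0.941). Their log2 fold changes between BCSCs and non-BCSCs, given without a test since likeness to ALDH1A3 over these libraries chose the genes, were 0.48, 0.64, 0.46, 0.46 and 0.42 in Hs578T and 0.07, 0.08, 0.02, 0.17 and 0.07 in HCC70. Within HCC70 alone, r with ALDH1A3 was 0.682, 0.73, 0.43, 0.953 and 0.022.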
